A study of Mus musculus with 12 samples.

Results

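The 10 genes described here were grouped as neuronal-associated and were read in progenitor B cells with and without the transcription factor Sox4. The genes are Cacna1h, Lrrn3, Apbb1, Tph1, Syndig1l, Arpp21, Klk8, Maged1, Slc17a8 and Nrep. They are 10 of the 19057 genes on the array, and every probe that carries one of their symbols was taken, 22 of 45281 probes. Arpp21 had 9 probes, Cacna1h had 3, Apbb1 and Syndig1l had 2 each and the other genes had 1 each. The genes were picked because their signal differed in these same comparisons, so their differences are given as descriptions and were not tested.

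RNA of progenitor B cells of embryonic fetal liver, from C57BL/6 mice and over 95% pure per the labels, was read on 12 single-colour Illumina bead arrays in 4 groups of 3. In the loss experiment, Sox4fl/fl SE-Cre cells (called SE-Cre below), in which a Cre recombinase can remove the floxed Sox4 gene, were set against Sox4fl/fl cells. In the gain experiment both groups had been immortalized with p190 Bcr-Abl, a constitutively active tyrosine kinase fusion, and were of the Sox4fl/fl SE-Cre genotype; those labelled HA-Sox4 were set against those labelled HA. All 12 samples carried the floxed Sox4 gene. The promoter behind SE-Cre is not named in the labels, and SE-Cre without a floxed Sox4 gene was not among the groups. Nor is it stated whether HA-Sox4 and HA cells derive from 1 immortalized culture, so Cre, culture and Sox4 cannot be told apart. The origin of the replicates (animals, cultures) is not stated either: p-values reflect the spread between the samples at hand, which may be technical.

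Sox4 is an HMG-box factor of the SoxC group, which binds a short AT-rich motif in the minor groove of DNA and is needed for early B cell development. In the nervous system Sox4 acts together with its close relative Sox11 in newly formed neurons, where SoxC factors activate neuronal genes. Some of the 10 genes are also known from other tissues, Tph1 from mast cells and gut and Arpp21 from immature thymocytes.

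For 3 of the genes, Arpp21, Klk8 and Maged1, signal was lower in SE-Cre cells than in Sox4fl/fl cells and higher with HA-Sox4 than with HA, and the 250 bases before a transcription start of each are shown for that reason. The sequences are those of RefSeq on GRCm38.p6, written 5′ to 3′ on the strand of the gene in lower case. Capitals mark matches, on either strand, to AACAAAG, to its variant ACAATGG, or to CATTGT, all of them common forms of the Sox motif. The reverse complement of CATTGT is ACAATG and lies within ACAATGG.
Arpp21, chr9:112187767-112188016, minus strand: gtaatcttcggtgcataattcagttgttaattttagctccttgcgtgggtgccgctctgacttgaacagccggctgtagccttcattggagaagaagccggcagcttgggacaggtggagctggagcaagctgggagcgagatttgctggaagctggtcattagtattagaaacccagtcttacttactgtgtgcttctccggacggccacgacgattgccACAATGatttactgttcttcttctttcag
Klk8, chr7:43797327-43797576, plus strand: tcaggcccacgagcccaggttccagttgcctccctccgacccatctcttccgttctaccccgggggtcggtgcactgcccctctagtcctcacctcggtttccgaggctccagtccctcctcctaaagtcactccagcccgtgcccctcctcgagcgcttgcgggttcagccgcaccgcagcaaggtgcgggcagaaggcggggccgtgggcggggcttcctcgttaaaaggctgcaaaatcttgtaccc
Maged1, chrX:94542026-94542275, minus strand: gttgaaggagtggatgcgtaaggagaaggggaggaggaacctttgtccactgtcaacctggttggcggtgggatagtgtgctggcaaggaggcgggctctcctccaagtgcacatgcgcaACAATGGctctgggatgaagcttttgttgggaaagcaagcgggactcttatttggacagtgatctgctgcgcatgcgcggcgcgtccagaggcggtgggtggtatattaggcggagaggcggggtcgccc
The Maged1 window held ACAATGG 130 bases before the start, and the printed Arpp21 window held ACAATG 29 bases before the start. That window is the 1 of 9 Arpp21 windows with a match and is printed for that reason; the other Arpp21 windows held none, and neither did the single Klk8 window. The promoter table had 18 such windows for 6 of the 10 genes, 9 of them for Arpp21, and 2 of the 18 (11.1%) held a match, against 15% of all 32851 windows of the table. Over all windows, AACAAAG was found in 5.03%, ACAATGG in 3.02% and CATTGT in 10.7%. These letters describe the windows and are not evidence of binding. Cacna1h, Lrrn3, Syndig1l and Nrep were not in the table.

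Values are log2 intensities after background correction and quantile normalization of the 6 arrays of an experiment. A probe counted as detected on an array where its deposited detection p-value was under 0.05, and it passed the detection filter where it was detected on at least 3 of the 6 arrays. Each array detected between 36.1% and 40.0% of its probes, and the median non-normalized intensity was between 83.4 and 90.2 on the loss arrays and between 114.5 and 139.2 on the gain arrays. Sox4 itself, by its brighter probe, averaged 4.50 ± 0.21 in SE-Cre cells and 10.61 ± 0.06 in Sox4fl/fl cells (SD, n = 3 each). That probe averaged, on the gain arrays, 5.47 ± 0.43 in HA-Sox4 cells, detected on 3 of 3 arrays, and 4.68 ± 0.28 in HA cells, detected on none (SD, n = 3 each). The dimmest detected probes of the gain arrays read 5.08 to 5.25, and against these Sox4 was at least 1.18-fold higher in HA-Sox4 cells. The other Sox4 probe was detected on no gain array and had a log2 difference of -0.07. As these are bulk samples, fewer cells that express a gene and less RNA per cell cannot be told apart.

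In the loss experiment 8 of the 10 genes had groups that did not overlap by their brightest probe, 5 higher and 3 lower in SE-Cre cells. That order was seen in 22.2% of all genes on the array, and since the genes were chosen from this contrast the count supports nothing. Slc17a8 and Nrep were detected on no array of that experiment and did not pass the filter, so 8 genes passed it. Of the 10 genes, 9 did not overlap in the gain experiment, 6 higher and 3 lower in HA-Sox4 cells, beside 34.0% of all genes. Tph1 was the gene that did not pass the filter there, detected on none of the 6 arrays.

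**Figure D1:**
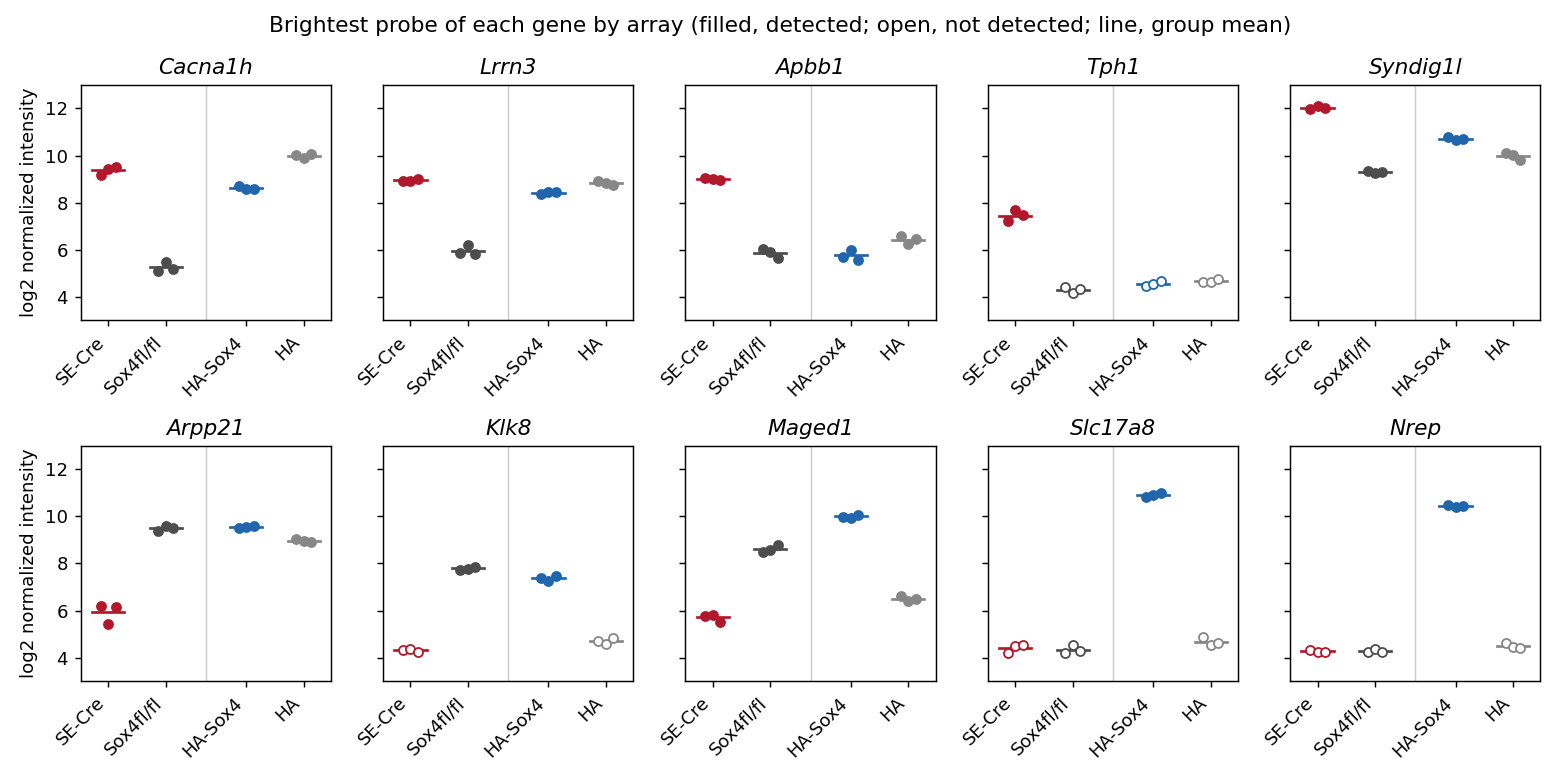
Log2 normalized intensity (vertical axes) of the brightest probe of each of the 10 genes on each array, with the group means as lines and undetected values as open circles; the grey line divides the loss experiment (left) from the gain experiment (right), which were normalized apart. Cacna1h averaged 9.37 in SE-Cre and 5.27 in Sox4fl/fl cells, and Slc17a8 was detected in HA-Sox4 cells alone, at a mean of 10.90.

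Cacna1h, Lrrn3 and Apbb1 were higher in SE-Cre cells than in Sox4fl/fl cells and lower with HA-Sox4 than with HA. Cacna1h encodes the pore-forming subunit of a T-type calcium channel, which opens at low voltage and shapes the firing of neurons. Its brightest probe read 9.18, 9.45 and 9.50 on the SE-Cre arrays, against 5.11, 5.50 and 5.19 on the Sox4fl/fl arrays. All 3 SE-Cre values lay above all Sox4fl/fl values, and the means of 9.37 ± 0.17 and 5.27 ± 0.21 (SD, n = 3 each) were 4.11 apart on the log2 scale, or 17.2-fold. On the gain arrays the probe read 8.71, 8.59 and 8.60 in HA-Sox4 cells, against 10.01, 9.89 and 10.08 in HA cells, a log2 difference of -1.36 with no overlap. The other 2 Cacna1h probes were detected on no array of either experiment, so the differences rest on 1 probe of 3.

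Lrrn3 encodes a transmembrane protein with leucine-rich repeats that is found in neurons. It read 8.93, 8.91 and 9.02 in SE-Cre cells, against 5.85, 6.21 and 5.81 in Sox4fl/fl cells, with means of 8.95 ± 0.06 and 5.96 ± 0.22 (SD, n = 3 each), and the log2 difference was 3.00, with all SE-Cre values above all Sox4fl/fl values. On the gain arrays it read 8.35, 8.46 and 8.44 in HA-Sox4 cells, against 8.93, 8.84 and 8.75 in HA cells. Those groups did not overlap either, but the log2 difference was only -0.42.

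Apbb1 encodes an adaptor that binds the cytoplasmic tail of the amyloid precursor protein. Its brighter probe read 9.03, 9.02 and 8.96 in SE-Cre cells, against 6.02, 5.92 and 5.65 in Sox4fl/fl cells. The SE-Cre values were close together, with an SD of 0.04 against 0.19 in Sox4fl/fl cells (n = 3 each), and the log2 difference was 3.14. The gain arrays gave 5.71, 5.98 and 5.59 for HA-Sox4 cells, against 6.59, 6.24 and 6.47 for HA cells. The log2 difference was -0.67, and the groups lay close together without overlapping. The other Apbb1 probe did not pass the filter in either experiment.

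Tph1 encodes the tryptophan hydroxylase of peripheral tissues, the first and rate-limiting enzyme of serotonin synthesis. It read 7.21, 7.67 and 7.47 in SE-Cre cells, against 4.43, 4.18 and 4.33 in Sox4fl/fl cells, where no array detected it. The signal was at least 7.40-fold higher in SE-Cre cells, a bound set against the lowest signal of any detected probe. Tph1 was undetected in both groups of the gain experiment, at 4.45, 4.53 and 4.70 in HA-Sox4 cells and 4.63, 4.63 and 4.74 in HA cells, so the immortalized cells gave no Tph1 signal above background.

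Syndig1l encodes a transmembrane protein related to Syndig1, a protein of excitatory synapses that associates with AMPA receptors. It was higher in both contrasts. The brighter probe read 11.96, 12.12 and 12.01 in SE-Cre cells, against 9.36, 9.28 and 9.30 in Sox4fl/fl cells, and 10.80, 10.64 and 10.69 in HA-Sox4 cells, against 10.11, 10.03 and 9.83 in HA cells. The log2 differences were 2.72 and 0.72, and the groups overlapped in neither experiment. The second probe, also detected on every array, had log2 differences of 3.46 and 0.89. Thus Syndig1l was the one gene of the 10 whose signal was higher both where Sox4 was deleted and where HA-Sox4 was added.

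Arpp21, Klk8 and Maged1, whose promoters are printed above, were lower in SE-Cre cells than in Sox4fl/fl cells and higher with HA-Sox4 than with HA. Arpp21 encodes a cyclic AMP regulated phosphoprotein of striatal neurons with an RNA-binding R3H domain. Its brightest probe read 6.19, 5.41 and 6.16 in SE-Cre cells, against 9.39, 9.59 and 9.52 in Sox4fl/fl cells. SE-Cre replicate 2 was lower than the other SE-Cre arrays, and the log2 difference of the means, 5.92 ± 0.44 and 9.50 ± 0.10 (SD, n = 3 each), was -3.58. With immortalized cells it read 9.50, 9.57 and 9.57 in HA-Sox4 cells, against 9.06, 8.97 and 8.89 in HA cells, a log2 difference of 0.57 without overlap.

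The 9 Arpp21 probes did not read alike. In the loss experiment 4 passed the filter, with log2 differences of -3.58, -1.85, -2.04 and -0.26, and 5 were detected on no array. The probes with -2.04 and -0.26 were detected on no SE-Cre array, and their signals were at least 3.37-fold and 1.08-fold lower in SE-Cre cells. In the gain experiment 3 passed, with log2 differences of 0.57, 0.68 and 0.24. By the probe with 0.24 the HA-Sox4 values were 5.60, 5.47 and 5.33, all below the 5.76 of HA replicate 2, so the groups overlapped there. Averaged over the kept probes, the log2 difference was -1.93 (loss) and 0.50 (gain). The sources used here do not give where in the transcripts the probes lie.

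Klk8 encodes neuropsin, a secreted serine protease of the kallikrein family that acts on synaptic proteins in the hippocampus. It read 4.32, 4.36 and 4.24 in SE-Cre cells, none of them detected, against 7.73, 7.78 and 7.86 in Sox4fl/fl cells, so that SE-Cre cells were at least 9.18-fold lower. The gain arrays showed the reverse pattern of detection. Klk8 read 7.38, 7.25 and 7.47 in HA-Sox4 cells, against 4.71, 4.56 and 4.83 in HA cells, undetected on every array, and was at least 4.38-fold higher in HA-Sox4 cells.

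Maged1 encodes a MAGE family adaptor that binds the low-affinity neurotrophin receptor. It was detected on all 12 arrays. Maged1 read 5.78, 5.82 and 5.53 in SE-Cre cells, against 8.48, 8.55 and 8.80 in Sox4fl/fl cells, and the log2 difference between 5.71 ± 0.16 and 8.61 ± 0.17 (SD, n = 3 each) was -2.90. The gain arrays gave values of 9.96, 9.95 and 10.07 in HA-Sox4 cells, against 6.62, 6.39 and 6.48 in HA cells, a log2 difference of 3.50. No SE-Cre value came near a Sox4fl/fl value and no HA-Sox4 value near an HA value.

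Slc17a8 and Nrep were detected in HA-Sox4 cells and in no other group. Slc17a8 encodes a vesicular glutamate transporter that loads glutamate into synaptic vesicles. It read 10.82, 10.90 and 10.97 in HA-Sox4 cells, against 4.87, 4.52 and 4.63 in HA cells, at least a 50.7-fold difference. Nrep, named for a role in neuronal regeneration, encodes a small intracellular protein. Its signals were 10.50, 10.41 and 10.43 in HA-Sox4 cells, against 4.64, 4.46 and 4.43 in HA cells, at least 37.1-fold higher. Before normalization Slc17a8 stood at 2132, 1960 and 2040 intensity units on the HA-Sox4 arrays, against 138.7, 104.0 and 117.4 on the HA arrays.

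In the loss experiment, where Sox4fl/fl cells had the intact gene and a Sox4 signal of 10.61, Slc17a8 read 4.21, 4.50 and 4.52 in SE-Cre cells and 4.21, 4.53 and 4.27 in Sox4fl/fl cells. Nrep read 4.33, 4.24 and 4.25 in SE-Cre cells and 4.24, 4.37 and 4.23 in Sox4fl/fl cells. All of these 12 values were undetected.

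**Figure D2:**
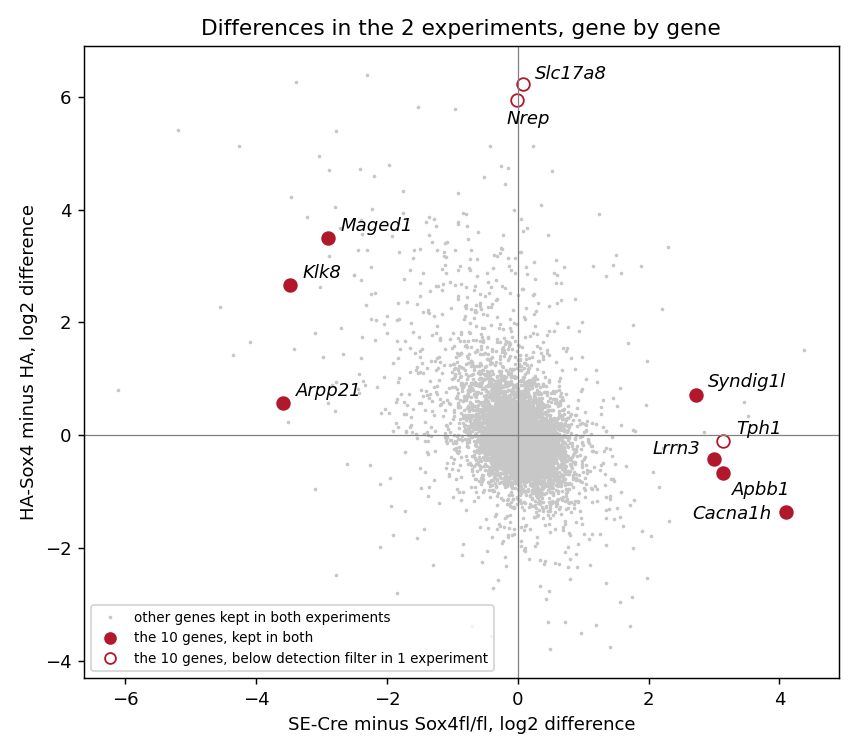
Log2 difference of each gene in the loss experiment (horizontal axis, SE-Cre minus Sox4fl/fl) and in the gain experiment (vertical axis, HA-Sox4 minus HA), with the 10 genes in red over the other genes kept in both experiments in grey; open circles mark genes below the detection filter in 1 experiment. Cacna1h, Lrrn3 and Apbb1 lie at the lower right, Arpp21, Klk8 and Maged1 at the upper left, Slc17a8 and Nrep near 0 on the horizontal axis and Syndig1l at 2.72 and 0.72.

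By direction the 10 genes thus made up 5 classes. Higher in SE-Cre and lower in HA-Sox4 cells were 3 genes, and lower in SE-Cre and higher in HA-Sox4 cells were also 3. By limma calls rather than overlap, 307 of the 940 genes of the array that changed in both experiments had the first order. The second order was seen in 460 of them. As the 10 genes were chosen from these contrasts, their counts are a description only. Tph1 differed in the loss experiment alone and 2 genes, Slc17a8 and Nrep, in the gain experiment alone. Syndig1l was higher in both. Where the directions were opposite the sizes were not equal: Arpp21 had -3.58 and 0.57, Lrrn3 3.00 and -0.42, and Maged1 -2.90 and 3.50, in loss and gain.

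**Figure D3:**
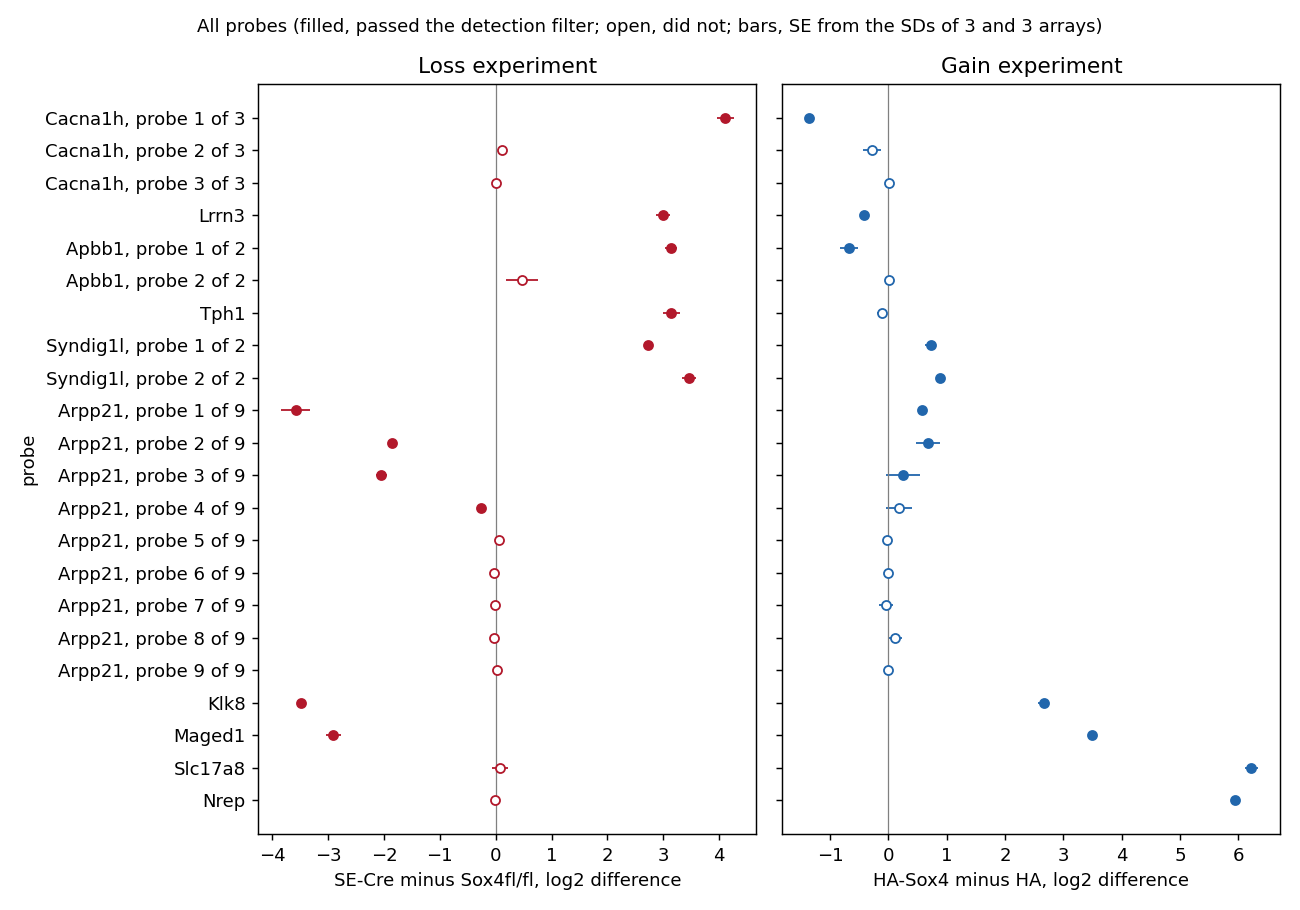
Log2 difference of every one of the 22 probes (rows) in the loss experiment (left, SE-Cre minus Sox4fl/fl) and the gain experiment (right, HA-Sox4 minus HA), with bars for the standard error from the SDs of 3 and 3 arrays; filled circles passed the detection filter, 12 probes in each experiment. Both Syndig1l probes lie to the right of 0 in both panels, while 5 of the 9 Arpp21 probes were detected on no array and lie near 0.

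With all 12 arrays normalized together the levels of each gene could be set in order over the 4 groups, although experiment, immortalization and array batch cannot be told apart in any comparison across experiments. On that scale Cacna1h stood at 10.11 ± 0.17 in SE-Cre and 5.90 ± 0.24 in Sox4fl/fl cells, and at 8.15 ± 0.07 in HA-Sox4 and 9.51 ± 0.10 in HA cells (SD, n = 3 each). No groups next to each other in level overlapped, and the HA-Sox4 level lay between the level of HA cells and that of Sox4fl/fl cells. Lrrn3 had the same order, at 9.69 ± 0.06 in SE-Cre and 6.67 ± 0.23 in Sox4fl/fl cells, and at 7.94 ± 0.06 in HA-Sox4 and 8.36 ± 0.09 in HA cells. Apbb1 differed from both, at 9.75 ± 0.04 in SE-Cre, 6.57 ± 0.20 in Sox4fl/fl, 5.38 ± 0.18 in HA-Sox4 and 5.99 ± 0.17 in HA cells. Both immortalized groups were therefore below both unimmortalized groups for Apbb1, with no overlap.

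Arpp21 ran the other way, at 6.62 ± 0.48 in SE-Cre and 10.24 ± 0.10 in Sox4fl/fl cells, and at 9.07 ± 0.04 in HA-Sox4 and 8.50 ± 0.08 in HA cells. All 4 groups were apart, and HA cells, although of the SE-Cre genotype, lay 1.88 above SE-Cre cells. Klk8 was at 6.89 ± 0.11 in HA-Sox4 cells, below its 8.51 ± 0.06 in Sox4fl/fl cells, and its undetected levels in SE-Cre and HA cells overlapped. Maged1 was at 9.51 ± 0.07 in HA-Sox4 and 9.35 ± 0.17 in Sox4fl/fl cells, which overlapped, and at 6.40 ± 0.17 in SE-Cre and 6.04 ± 0.11 in HA cells, which did not. The Maged1 level of Sox4fl/fl cells lay 2.95 above that of SE-Cre cells, the next group.

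Syndig1l was at 12.87 ± 0.10 in SE-Cre and 10.04 ± 0.04 in Sox4fl/fl cells, and at 10.23 ± 0.08 in HA-Sox4 and 9.50 ± 0.14 in HA cells. The SE-Cre level lay 2.64 above the next group, HA-Sox4, with no overlap between neighbours. Tph1 was at 8.17 ± 0.22 in SE-Cre cells, and its undetected levels in the other 3 groups overlapped. Slc17a8 at 10.41 ± 0.08 and Nrep at 9.97 ± 0.05 in HA-Sox4 cells stood 5.74 and 5.51 above the next group, and the other 3 groups, all undetected, overlapped for both genes.

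The genes most like each of the 10 over these 12 arrays, by Pearson's r with 10249 other genes, are given as a description with no p, since the arrays share their group and experiment and any gene with the same group means scores high. Nrep was closest to Gpr183 (r = 0.999), Acot1 and Sel1l3, and Slc17a8 to Acot1 (0.997), Aif1l and Sel1l3. Tph1 was closest to the T cell receptor segment Trbv13-2 (0.996), Prodh and Nav1, and Syndig1l to Nav1 (0.981), Trbv13-2 and Gm5662, so that these 2 genes, both at their top in SE-Cre cells, shared 2 of their 3 nearest genes. Apbb1 was closest to Son (0.995), Slc25a18 and Tspan6. Klk8 was closest to B3gnt8 (0.993), Slc7a3 and Fgf13, Maged1 to Auts2 (0.992), Plekha1 and Tmem176a, and Arpp21 to Tnfrsf19 (0.982), Pecam1 and Ift43. Cacna1h had Dusp3 (0.978), Mt1 and Car13, and Lrrn3 had Mnd1 (0.978), Rab29 and Abi3. No gene was among the nearest 3 of both Cacna1h and Lrrn3.

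The relatives and partners of the 10 genes were then examined in 13 lists that leave out the 10 themselves, 244 of 268 listed genes being on the array. These genes were tested with limma, with p-values adjusted over all kept probes. In the loss experiment 21 of 95 list genes that passed the filter changed (22.1%), 6 higher and 15 lower in SE-Cre cells, against 16.4% of all genes (7.49% higher and 8.93% lower). Their median log2 difference was -0.06, and that of all genes was 0.02. In the gain experiment 53 of 100 changed (53.0%), 38 higher and 15 lower in HA-Sox4 cells, against 44.2% of all genes (21.3% higher and 22.8% lower), and the medians were 0.15 for the lists and -0.05 for all genes. Of the list genes, 101 were detected on no loss array and 103 on no gain array.

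**Figure D4:**
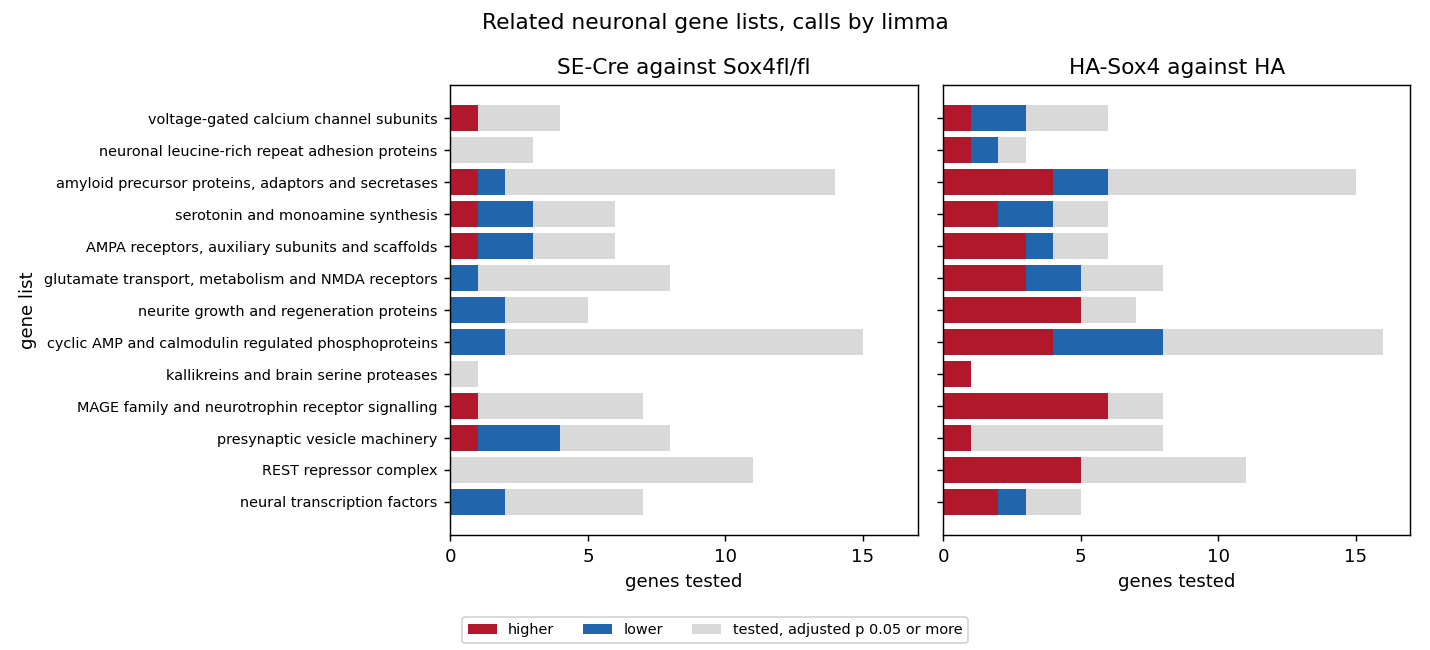
Number of tested genes (horizontal axes) in each of the 13 related lists that were higher (red), lower (blue) or not past an adjusted p of 0.05 (grey) in limma, for SE-Cre against Sox4fl/fl (left) and HA-Sox4 against HA (right). Neurite growth genes fell in 2 of 5 cases on the left and rose in 5 of 7 on the right. No REST complex gene of 11 passed on the left, and 5 of 11 passed on the right. Of all genes, 16.4% passed on the left and 44.2% on the right.

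Receptors, scaffolds and transporters of glutamate synapses, the partners of Syndig1l and Slc17a8, held the largest list difference of the gain experiment. Gria2, which encodes an AMPA receptor subunit, averaged 10.29 ± 0.07 in HA-Sox4 and 5.19 ± 0.20 in HA cells (SD, n = 3 each), a log2 difference of 5.10 (SE 0.12, limma adjusted p = 3.15e-07). It was detected on 1 of 3 HA arrays, and its 3 probes gave 3.27, 3.67 and 5.10. Grip1, an AMPA receptor scaffold gene, and Dlg3, a gene of a membrane-associated guanylate kinase scaffold, were detected on no HA array by their brightest probes and by these rose at least 8.41-fold and 3.93-fold in HA-Sox4 cells. The Grip1 bound rests on 1 probe, with a log2 difference of 3.78, and its other kept probes gave smaller ones, of 2.57 and 2.23. Both fell in SE-Cre cells, Dlg3 by 2.18 (limma adjusted p = 8.58e-07) and Grip1 by 0.91 (0.00286). Nsf, an ATPase gene of membrane fusion, moved oppositely, with 0.63 in the loss experiment (limma adjusted p = 0.00843) and -0.56 in the gain experiment (0.00236). The Nsf call in the loss experiment was lost when its probes were averaged (log2 difference 0.39, adjusted p = 0.084). Of the AMPA receptor list 3 of 6 tested genes changed in the loss experiment, 1 higher and 2 lower, and 4 of 6 in the gain experiment, 3 higher and 1 lower.

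Among 8 tested genes of glutamate transport, metabolism and NMDA receptors, Slc1a4, a neutral amino acid transporter gene, was the single call of the loss experiment, where it fell by 1.05 (limma adjusted p = 0.000276). It rose in HA-Sox4 cells by 0.83 (0.00112). With HA-Sox4, 3 of the 8 rose and 2 fell, Glud1, the glutamate dehydrogenase gene, by 0.48 and Slc17a9, a vesicular nucleotide transporter gene and relative of Slc17a8, by 0.52. The relative Slc17a6 was detected on no gain array.

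Of 8 tested genes of the presynaptic vesicle machinery, 3 fell and 1 rose in SE-Cre cells. Stx1a, a syntaxin gene of vesicle fusion, fell by 1.64 (SE 0.14, limma adjusted p = 5.32e-06) and was detected on 1 of 3 SE-Cre arrays. Sv2a, a synaptic vesicle glycoprotein gene, fell by 0.87 (limma adjusted p = 0.00171), also with 1 of 3 SE-Cre arrays detected. Syt1, the calcium sensor of vesicle release, was detected on no SE-Cre array and was at least 1.55-fold lower there. Without Sox4fl/fl replicate 2 that probe did not pass the filter and another represented the gene, with a log2 difference of -0.09 (adjusted p = 0.796). In HA-Sox4 cells, Rab3a, a GTPase gene of vesicle docking, rose by 0.90 and was the single call of the list.

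Amyloid precursor and adaptor genes, the partners of Apbb1, changed in 2 of 14 tests in the loss experiment, 1 in each direction. Aph1b, a gamma-secretase subunit gene, averaged 7.70 ± 0.19 in SE-Cre and 5.69 ± 0.21 in Sox4fl/fl cells (SD, n = 3 each), a log2 difference of 2.01 (SE 0.16, limma adjusted p = 3.18e-06), and Apba3, an adaptor gene, fell by 1.09 (0.00281). Of 15 tested in the gain experiment 4 rose and 2 fell. Apbb2, the relative of Apbb1, was detected on no HA array and rose at least 5.48-fold in HA-Sox4 cells, where Apbb1 itself was lower. App, the amyloid precursor gene, rose at least 1.85-fold from no detection, and its relative Aplp2 rose by 0.88 (limma adjusted p = 0.00014).

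The calcium channel list, the family of Cacna1h, had 4 tested genes in the loss experiment and 6 in the gain experiment. Cacnb2, an auxiliary subunit gene, followed Cacna1h in direction, with 0.75 in the loss experiment (limma adjusted p = 0.0118) and -0.97 in the gain experiment (0.000194). In the loss experiment it no longer passed with Sox4fl/fl replicate 2 (adjusted p = 0.0591) or 3 (0.789) or SE-Cre replicate 3 (0.173) left out, or with no detection filter (0.0606), and 3 further probes of the gene gave 0.10, 0.20 and 0.41. Cacna1b and Cacna2d3 passed in the gain experiment with 0.46 and -0.45, calls that were lost without HA replicate 1 (adjusted p = 0.0695 and 0.0802). Both calls were also lost with the authors' processed values (limma adjusted p = 0.107 and 0.115) and with no detection filter (0.883 and 0.0573). The other Cacna1b probes, which did not pass the filter, gave 0.11, -0.02 and 0.08. The Cacna2d3 call was also lost without HA replicate 2 (0.0676), HA-Sox4 replicate 1 (0.0892) or HA-Sox4 replicate 2 (0.0663). The other T-type subunit genes, Cacna1g and Cacna1i, were detected on no array of either experiment.

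Leucine-rich repeat adhesion genes, the relatives of Lrrn3, gave no call among 3 tested genes in the loss experiment. In HA-Sox4 cells Lrrn4 fell by 0.76 (limma adjusted p = 0.00092) and Lrrtm2 rose at least 1.54-fold from no detection, with a log2 difference of 0.60 by its other kept probe. Lrrn1 and Lrrn2 were detected on no gain array.

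Genes around Tph1 in monoamine synthesis changed in 3 of 6 tests in the loss experiment, 1 higher and 2 lower, and in 4 of 6 in the gain experiment, 2 in each direction. Gch1, which encodes the first enzyme of tetrahydrobiopterin synthesis, the cofactor of tryptophan hydroxylase, averaged 4.78 ± 0.24 in SE-Cre and 6.59 ± 0.19 in Sox4fl/fl cells (SD, n = 3 each). It fell by 1.81 (SE 0.17, limma adjusted p = 9.93e-06), while Tph1 was higher in the same cells. A second kept Gch1 probe gave only -0.50, and the mean of the gene's probes fell by 1.15 (limma adjusted p = 9.44e-05). In HA-Sox4 cells Gch1 rose by 2.06 (SE 0.12, limma adjusted p = 1.76e-05). Ddc, the aromatic amino acid decarboxylase gene of serotonin and dopamine synthesis, fell by 0.93 in SE-Cre cells (limma adjusted p = 0.000446) and rose by 0.70 in HA-Sox4 cells (0.000523). Pcbd1, a gene of cofactor recycling, was detected on no HA-Sox4 array and was at least 2.10-fold lower there than in HA cells. Qdpr, another recycling gene, had 0.44 in the loss experiment (limma adjusted p = 0.0452) and -0.90 in the gain experiment (0.00435). Its loss call was lost when any single array was left out, with adjusted p between 0.0768 and 0.140, and when arrays were scaled to a common median (0.162). Tph2, the neuronal tryptophan hydroxylase gene, was detected on no array.

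Of the genes of neurite growth, listed for Nrep, 2 of 5 fell in SE-Cre cells and none rose. Dclk2, a microtubule-associated kinase gene of the doublecortin family, fell by 1.92 (SE 0.15, limma adjusted p = 2.69e-06) and Tmsb10, an actin-binding thymosin gene, by 1.81 (SE 0.16, 6.25e-06), with -0.47 and -2.04 by its other probes. In HA-Sox4 cells 5 of 7 rose and none fell. Dclk2 rose by 3.53 (SE 0.22, limma adjusted p = 2.68e-05), Stmn1, a microtubule-destabilizing stathmin gene, by 1.08 (0.000157) and Tmsb10 by 1.02 (0.000246). Kif5c, a kinesin motor gene of neurons, was detected on no HA array and rose at least 3.98-fold. Gap43, Basp1 and the other neuron-specific stathmins of the list, Stmn3 and Stmn4, were detected on no array of either experiment.

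Calmodulin and cyclic AMP regulated phosphoprotein genes, listed for Arpp21, changed in 2 of 15 tests in the loss experiment, both lower: Pcp4l1 by 1.55 (limma adjusted p = 0.000275) and Ppp3ca, a calcineurin catalytic subunit gene, by 0.83 (0.00277). Of 16 tested in the gain experiment 4 rose and 4 fell. Camk4, a calcium and calmodulin dependent kinase gene of neurons and lymphocytes, averaged 8.74 ± 0.13 in HA-Sox4 and 5.49 ± 0.20 in HA cells (SD, n = 3 each) and rose by 3.25 (SE 0.13, limma adjusted p = 2.72e-06). Camk2b, a related kinase gene, averaged 6.23 ± 0.15 in HA-Sox4 and 8.48 ± 0.14 in HA cells and fell by 2.25 (SE 0.11, limma adjusted p = 1.04e-05). Ppp3ca rose by 1.19 (4.69e-05).

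Of kallikreins and brain serine proteases, the family of Klk8, 1 gene was tested in each experiment. That of the loss experiment did not pass the test. Prss12, the gene of the synaptic protease neurotrypsin, was detected on no HA array and rose at least 3.02-fold in HA-Sox4 cells (limma adjusted p = 0.000113). Of the 15 listed proteases, 10 were detected on no loss array and 12 on no gain array.

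MAGE family and neurotrophin receptor genes, listed for Maged1, had 1 call among 7 tests in the loss experiment and 6 among 8 in the gain experiment, all higher. Sort1, which encodes sortilin, a co-receptor for pro-neurotrophins, averaged 8.93 ± 0.01 in HA-Sox4 and 5.09 ± 0.25 in HA cells (SD, n = 3 each) and rose by 3.83 (SE 0.13, limma adjusted p = 1.52e-06). Bex3, which encodes a protein that binds the low-affinity neurotrophin receptor, rose by 3.19 (SE 0.20, limma adjusted p = 2.79e-05), and its relative Bex2 at least 2.01-fold from no detection. That receptor's own gene, Ngfr, was detected on no array. Maged2, the nearest relative of Maged1 in the list, was higher in SE-Cre cells by 0.61 (limma adjusted p = 0.0285), opposite to Maged1. With Sox4fl/fl replicate 1 (adjusted p = 0.103) or 2 (0.106) or SE-Cre replicate 1 (0.0866) or 2 (0.0984) left out, the call was lost.

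Neural transcription factor genes changed in 2 of 7 tests in the loss experiment, both lower, and in 3 of 5 in the gain experiment, 2 higher and 1 lower. Hes1, a repressor that answers Notch signals, rose by 2.18 in HA-Sox4 cells (SE 0.10, limma adjusted p = 5.31e-06) and had -0.64 in SE-Cre cells (0.0331). In SE-Cre cells Hes1 no longer passed with Sox4fl/fl replicate 1 (adjusted p = 0.0707) or 3 (0.133) or SE-Cre replicate 2 (0.0827) or 3 (0.113) left out, or with no detection filter (0.131). Insm1, a zinc finger factor of neuroendocrine cells, fell by 0.98 in SE-Cre cells (limma adjusted p = 0.00636, and 0.0664 with no detection filter) and rose by 1.02 in HA-Sox4 cells (0.000258). Pou4f1, a POU factor of sensory neurons, fell by 1.44 in HA-Sox4 cells (5.36e-05). The REST repressor complex silences neuronal genes outside the nervous system. None of its 11 tested genes passed in the loss experiment and 5 of 11 rose in the gain experiment. Among all genes 16.4% changed in the loss experiment and 44.2% in the gain experiment, where 21.3% rose. Kdm1a, a histone demethylase gene, had the smallest adjusted p of the 5 REST complex genes and rose by 0.62 (limma adjusted p = 0.0018). Ctdspl, a phosphatase gene, rose by more, 0.99. Rest itself was detected on no array.

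Over the 13 lists, 14 genes changed in both experiments, and all 14 did so in opposite directions, against 767 of 940 (81.6%) among all genes that changed in both. They are 66.7% of the 21 loss calls and 26.4% of the 53 gain calls. Cacnb2, Nsf and Qdpr were higher in SE-Cre and lower in HA-Sox4 cells. The other 11 were lower in SE-Cre and higher in HA-Sox4 cells and included Dclk2, Ddc, Dlg3, Gch1, Grip1, Pcp4l1 and Tmsb10.

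The samples were also checked for markers of neurons and of other cells, among which markers named here were chosen after their values were seen. All 10 progenitor B cell markers on the array were detected in both experiments, with Igll1, a surrogate light chain gene, at 13.67 ± 0.17 in SE-Cre and 13.68 ± 0.11 in Sox4fl/fl cells (SD, n = 3 each). Of the 10, 1 was lower in SE-Cre cells by limma, and 1 was higher and 3 were lower in HA-Sox4 cells. The 10 summed to 37516.7–41371.4 in SE-Cre and 40172.5–43281.9 in Sox4fl/fl cells, and to 80061.8–83631.8 in HA-Sox4 and 85675.9–91934 in HA cells. Of 14 neuron markers on the array, 9 were detected on no loss array and 8 on no gain array, among them Tubb3, Rbfox3, Elavl2, Elavl4, Nefl and Stmn2 in both. Their summed level was 297–306 in SE-Cre, 322–377 in Sox4fl/fl, 1552–1610 in HA-Sox4 and 483–520 in HA cells, in normalized intensity units within each experiment. The sums of all marker lists count undetected markers too, at their background signal, so a low sum can be mostly background. The high sum in HA-Sox4 cells came with Uchl1, a ubiquitin hydrolase gene of neurons, which rose by 3.74 there (limma adjusted p = 2.09e-07) and fell by 0.91 in SE-Cre cells (0.00505). Map2, a dendritic microtubule protein gene, fell in both contrasts. Labelled as neuronal, the 10 genes were thus read in cells with B lineage markers and without most defining neuron markers.

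Mast cell markers were examined because mast cells are a known source of Tph1. Of 12 on the array 7 were detected on no loss array, including Mcpt4, Tpsb2, Fcer1a and Ms4a2, and their summed level was 1433–1734 in SE-Cre and 1122–1273 in Sox4fl/fl cells. Kit, also a receptor of progenitor cells, stood at 10.40 ± 0.16 in SE-Cre and 9.92 ± 0.12 in Sox4fl/fl cells (SD, n = 3 each; limma adjusted p = 0.0462), and Cpa3 was detected on 2 of 3 SE-Cre arrays and on no Sox4fl/fl array. Over the gain arrays the sum was 650–666 in HA-Sox4 and 371–387 in HA cells. Myeloid markers summed to 416–456 in SE-Cre and 236–259 in Sox4fl/fl cells and to 279–326 in HA-Sox4 and 611–692 in HA cells. Of the 10 on the array, 6 were detected on no loss array and 9 on no gain array. Lyz2, at 1.97 and -2.52 on the log2 scale, was the single call among 2 tested myeloid markers in the loss experiment and 1 in the gain experiment. This 1 gene moved in the same directions as Cacna1h, Lrrn3 and Apbb1, and any part of myeloid cells in their signals was not tested. Of the hepatocyte and stromal markers both tested genes fell in SE-Cre cells, Pecam1 by 2.80 and Vim by 1.11, and the 9 on the array summed to 542–752 in SE-Cre and 1332–1434 in Sox4fl/fl cells. Pecam1 rose by 0.43 in HA-Sox4 cells, where the sum was 1540–1876 in HA-Sox4 and 1495–1688 in HA cells. Pecam1 thus moved in the same directions as Arpp21, Klk8 and Maged1 and was also among the genes nearest to Arpp21. Of the 9 hepatocyte and stromal markers, however, 6 were detected on no loss array and 7 on no gain array, with Alb, Afp and Cdh5 among both. Any part of such cells in these signals was not tested. T and NK cell markers were split, with Bcl11b up by 0.56 and Klrd1 down, a log2 difference of -1.74, in SE-Cre cells, and Nkg7 rose by 2.17 in HA-Sox4 cells. Their sums were 203–215 in SE-Cre and 256–271 in Sox4fl/fl cells, and 414–452 in HA-Sox4 and 239–265 in HA cells. Of the erythroid markers Car2 rose by 1.01 in SE-Cre cells and fell by 1.75 in HA-Sox4 cells, where Tfrc rose by 0.54. Their sums were 4832–5994 in SE-Cre and 4882–5272 in Sox4fl/fl cells, and 9298–10268 in HA-Sox4 and 9426–10287 in HA cells. The 1 tested glial marker, Mbp, rose in both contrasts, by 0.70 and 0.28. Olig1, Olig2, Cd3e, Alb and Afp were detected on no array.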

How the data were processed

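Total RNA of progenitor B cells was read on 12 single-colour Illumina arrays, 3 for each of 4 groups taken from the sample titles. Non-normalized intensities, by their values linear and without background subtraction, were deposited for each probe and array, and next to each the authors gave a detection p-value, per the file headers. They also deposited processed intensities, of which at least 99.96% per array lay within 0.01 of quantile normalization within the experiment. R 3.0.1 is listed in the submitters' processing notes with no role, and for scanner software nothing is given in the sources used here.

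Each experiment's non-normalized intensities went through neqc (limma 3.58.1, R 4.3.3), which corrects the background from negative controls, here inferred through the detection p-values, adds an offset of 16, quantile-normalizes and takes log2. Probes detected (p under 0.05) on at least 3 of 6 arrays were fitted with lmFit and eBayes, without covariates, and p-values were adjusted by Benjamini-Hochberg over all kept probes, at a threshold of 0.05. The brightest kept probe stood for a gene, or the brightest of all where none was kept. Where a group was detected on no array, a fold is a bound: values below the dimmest detected probe of their array were set to that probe's signal. The number of arrays and, for dim probes, signal over background limit the precision.

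Of all probes 34885 carried 1 gene symbol, 18 several and 10378 none. The 10 genes and the gene and marker lists were chosen with earlier results of these data known. Named were the 10 genes, Sox4, up to 3 genes of each list with the smallest p past the threshold in each experiment, and the 3 nearest genes of each of the 10 over 12 arrays; others named were chosen after their values were seen. The fit was tested on simulated log2 values with known changes, a test that did not cover the background correction, normalization or detection filter. The alternatives were: leaving out each array, omitting the background correction, using the authors' processed values, scaling to a common median, normalizing all 12 arrays together, dropping or tightening the detection filter, averaging a gene's probes, a trended robust eBayes, array weights, and the replicate number as a block. Slide and scan batches were not analysed, as the tables name none.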

Additional observations from a re-analysis of the deposited data

Results flagged for a closer look

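Most genes that changed in both experiments did so in opposite directions. The following had all 3 arrays of a group on the same side in both contrasts, so that they differed one way where Sox4 was deleted and the same way where HA-Sox4 was added; the difference between the experiments was not tested. Syndig1l had log2 differences of 2.72 (SE-Cre minus Sox4fl/fl) and 0.72 (HA-Sox4 minus HA) by its brighter probe, and 3.46 and 0.89 by its other probe. Camk2b, the calmodulin-dependent kinase gene, had -0.54, which did not pass the test (limma adjusted p = 0.0519), and -2.25. The neuron marker Map2 had -1.20 and -1.21. The myelin gene Mbp, also made in blood cell precursors, had 0.70 and 0.28. Kit had 0.48 and 2.30. The B lineage factor gene Ebf1 had -0.49 and -0.32, the second not past the test (limma adjusted p = 0.0673), and Cd93, a marker of early B cells, had -0.18, not past the test (limma adjusted p = 0.425), and -0.69. Groups of 3 arrays were not examined for single samples that stand apart.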

How the results depend on the processing

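No difference of the 10 genes between groups that did not overlap, and no named list gene, turned its direction under any alternative that was run. Without background correction the sizes shrank, in the loss experiment to 2.62 for Cacna1h, 1.99 for Lrrn3, 2.07 for Apbb1, 1.38 for Tph1, 2.57 for Syndig1l, -2.48 for Arpp21, -1.61 for Klk8 and -1.81 for Maged1. In the gain experiment they came to 3.88 for Slc17a8, 3.55 for Nrep, 1.03 for Klk8, 2.44 for Maged1, -0.24 for Apbb1, -1.14 for Cacna1h, -0.32 for Lrrn3 and 0.48 for Arpp21. Array weights moved the differences of the 10 genes by at most 0.04 (loss) and 0.01 (gain). The variance model cannot change a log2 difference, nor can the block, as each replicate number occurs once per group. A detection filter can do so only by changing the probe that stands for a gene, which did not happen among those fitted. These settings are therefore no check of the sizes. The authors' processed values, not background-corrected, also gave smaller differences for most list genes, such as 3.13 for Gria2, 1.73 for Grip1 and 1.94 for Dclk2 in the gain experiment and -0.70 for Gch1 in the loss experiment. Of the 10 genes, those with non-overlapping groups numbered 8 in the loss and 9 to 10 in the gain experiment when each array was left out. The count of 10 came without HA-Sox4 replicate 3 and took in Tph1, which was detected on no gain array. With all 6 arrays 22.2% (loss) and 34.0% (gain) of all genes did not overlap. That share was not computed with an array left out, and smaller groups overlap less readily. Left out in turn, the arrays gave 1536 to 1996 called probes in the loss experiment, against 2516 on 6 arrays, with 1590, 1536 and 1612 without Sox4fl/fl replicate 1, 2 and 3, and 5468 to 6202 in the gain experiment, against 7218. List genes called numbered 16 to 19 and 39 to 51. Scaling to a common median gave 719 higher and 1498 lower probes in the loss experiment, against 1148 and 1368, and 3196 and 2552 in the gain experiment, against 3261 and 3957; list genes then stood at 3 higher and 18 lower, and at 36 and 11. Among the named list genes, 7 lost their loss call in at least 1 setting, with 28 such values between them. For 4 named genes the gain call was lost at least once, with 18 such values. The cause was not tested.

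Deviations of same-numbered samples were nearly uncorrelated (0.01, 0.00 and 0.04 in the loss and -0.02, -0.00 and -0.01 in the gain experiment). With so few samples this cannot settle whether the replicate numbers pair them. With the replicate number as a block 2387 and 6448 probes and 21 and 50 list genes were called, and Qdpr (adjusted p = 0.0694), Cacna1b (0.0784) and Cacna2d3 (0.0748) lost their calls. Hdac2 lost its call with scaling to a common median (0.0714) and Ctdspl with detection on every array (0.264).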
